A study of Mus musculus with 12 samples.

Results

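The genes described here are 36 members of the hepatic acute phase response and of the interleukin 6 and interleukin 1 pathways that drive it, chosen by name, with earlier results of these data known. Of the 36 members, 29 had a row in the FPKM table (fragments per kilobase of transcript, scaled to the mapped fragments of the library), out of 24910 genes or unnamed transcripts in all, and the FPKM of a gene was the sum over its RefSeq transcripts. No FPKM is given below for the other 7 members (Saa1, Saa2, Saa3, Saa4, Hpx, Fga and Fgb), whose RNA was not analysed here. Of the 29, 23 were above 0 in all 6 mice, 4 in some mice only (Orm3, Serpina3m, Lifr and Il1r1), and 2 were listed at 0 in all 6 (Il6ra and Il6st). The livers came from male C57BL/6J mice in 3 groups of 2. Sham and VSG mice ate a 60 kcal% high-fat diet from 8 weeks of age, for 14 weeks before and 14 weeks after the operation, apart from a liquid diet over the first 4 postoperative days. In VSG (vertical sleeve gastrectomy) about 80% of the stomach was resected, whereas in Sham mice the stomach was isolated and pressed with forceps. Control mice (labelled Ctl) had chow for 28 weeks and no surgery, so that diet and surgery cannot be told apart when Sham or VSG mice are compared with them. RNA-seq and FAIRE-seq, a measure of accessible chromatin that enriches DNA not held by nucleosomes, were made from the same livers.

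In inflammation, interleukin 6 binds its receptor Il6ra on hepatocytes, and the shared signalling subunit Il6st (gp130) activates the transcription factor Stat3. Together with the C/EBP factors and with NF-kappa B, which interleukin 1 activates, Stat3 switches on the genes of secreted acute phase proteins, while Socs3 limits the signal. The liver is the main source of these proteins in blood, and most are carriers, opsonins or protease inhibitors.

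For most acute phase proteins the mean FPKM was highest in Sham mice, and the 2 VSG mice were uneven. The pentraxin Apcs, the lipocalin Lcn2 and the orosomucoid Orm2 stood out, with mean FPKM 33.3, 27.5 and 33.2 times as high in Sham as in Control mice. Apcs rested on 2763 ± 2316 against 82.8 ± 8.46 FPKM (SD, n = 2), Lcn2 on 3606 ± 2367 against 131 ± 32.1, and Orm2 on 5953 ± 1676 against 179 ± 1.51. No member passed the test in Sham against Control mice or in VSG against Sham mice (limma on log2(FPKM + 1), adjusted p under 0.1 over all genes), and 1 member, the receptor Lifr, passed in VSG against Control mice, where both Control mice were listed at 0. The counts of members were the same with limma without a variance trend, but not under every alternative. In Sham against Control mice 1 member was called with pseudocount 0.1 or 0.5 or upper quartile scaling (Lifr). With only these 2 groups fitted, 1 was called (Orm2). In VSG against Control mice Lifr was lost with no filter, with a filter on the mean FPKM and with a replicate block. Calls by this test were rare among all 9869 genes tested, at 0.284% for Sham against Control, 0.0507% for VSG against Sham and 0.284% for VSG against Control mice. With 2 mice a group, an exact permutation test of a single gene cannot give a p below 0.333.

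Of the 29 members with a row, 25 reached 1 FPKM in 2 or more mice and were tested, and Orm3, A2m, Il6ra and Il6st did not. In 10 of the 25, both Sham mice lay above both Control mice with a difference of means of at least 1 on the log2(FPKM + 1) scale, and 5.52% of all genes did so. These 10 were Apcs, Orm1, Orm2, Lcn2, Hp, Cp, Itih4, Lrg1, Lifr and Il1rn. Of these, Lifr was listed at 0 in both Control mice and passed the filter through Sham and VSG mice alone. No tested member lay below Control mice by the same rule, against 5.28% of all genes. Without Sham mouse 2 the count was 8 of 25, against 9.03% of all genes, with Itih4 and Il1rn no longer among them and Stat3 now lower. In 18 of the 25 the mean on the log2(FPKM + 1) scale was higher in Sham mice, against 52.8% of all genes. Besides Lifr, the 18 held Serpina3m, which passed the filter through Sham mouse 2 and VSG mouse 2 alone, and Il1r1. Il1r1 was listed at 0 in Control mouse 1, and its mean FPKM was lower in Sham (4.74) than in Control mice (5.35). At an unadjusted p under 0.05, 7 members (Lifr among them) were higher and 1 lower in Sham than Control mice, against 6.57% and 4.34% of all genes. The median difference of the 25 members was 0.67 on the log2 scale (the value of Il1r1), beside 0.04 over all genes, and 0.12 without Sham mouse 2.

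In VSG against Sham mice, 22 of the 25 members had a lower mean in VSG, against 40.3% of all genes. Among the 22 was Serpina3m, listed at 0 in Sham mouse 1 and VSG mouse 1. The median difference of the 25 members was -0.99 on the log2 scale beside 0.08 over all genes. Both VSG mice lay below both Sham mice by at least 1 on the log2 scale for 10 members, against 2.25% of all genes. They were Orm1, Orm2, Hp, Steap4, Fgg, Serpina3n, Lrg1, Il1r1, Il1rn and Socs3, with Il1r1 listed at 0 in VSG mouse 1. No member lay above by this rule, against 3.93%. The count was 17 without Sham mouse 1, against 5.17% of all genes, and 5 (Orm2, Steap4, Il1r1, Il1rn and Socs3) without VSG mouse 2, against 5.31%, and the median difference without Sham mouse 1 was -1.65. At an unadjusted p under 0.05, 5 members were lower and 0 higher, against 1.60% and 3.25% of all genes. Both comparisons use the same 2 Sham mice, so that a high value there enters each of them.

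**Figure D1:**
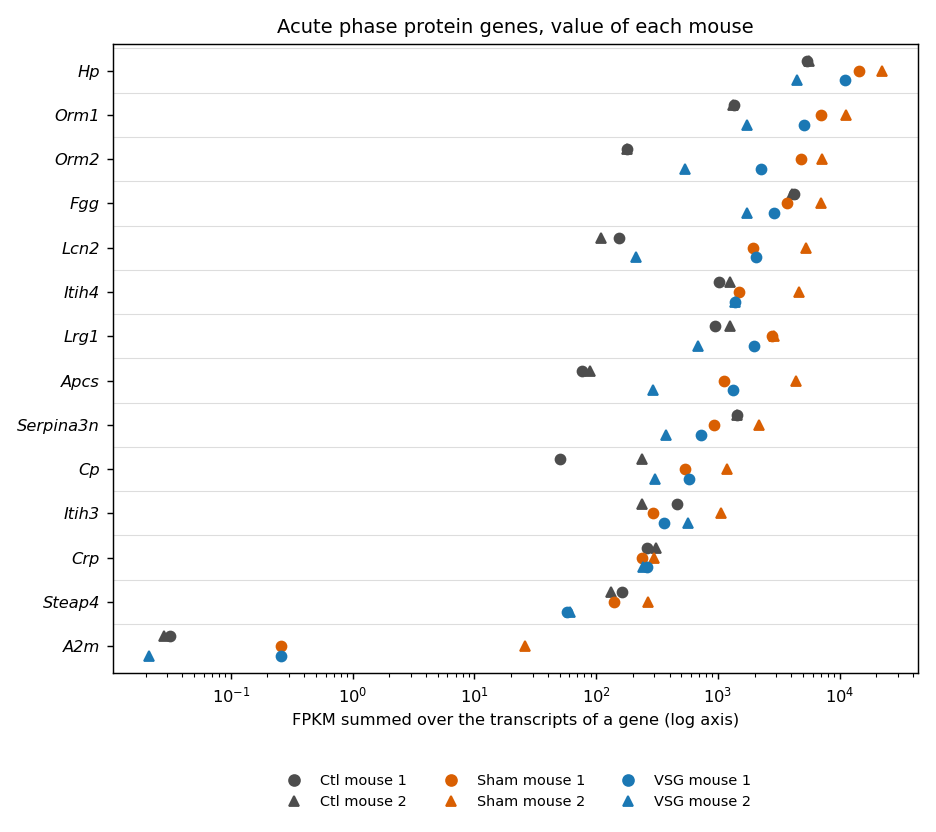
FPKM of each mouse (log axis) for the 14 acute phase protein genes that were above 0 in all 6 mice, with Ctl in grey, Sham in orange and VSG in blue, circles for mouse 1 and triangles for mouse 2 of a group. Orange triangles (Sham mouse 2) lie farthest right for most genes, grey points lie close together except for Cp and Itih3, and the 2 blue points are far apart for Apcs, Orm2 and Lcn2.

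The serum amyloid A and pentraxin members that were measured were Apcs and Crp. Apcs, the serum amyloid P component and a major acute phase pentraxin of the mouse, had an FPKM of 76.9 and 88.8 in Control, 1125 and 4400 in Sham and 1316 and 293 in VSG mice. All 4 mice on the high-fat diet were above both Control mice, and the Sham and VSG ranges overlapped because VSG mouse 1 exceeded Sham mouse 1. The difference from Control was 4.74 ± 0.95 (SE) on the log2 scale in Sham (adjusted p = 0.257) and 2.90 ± 0.95 in VSG mice (adjusted p = 0.481), neither past the threshold. Crp, a pentraxin that is a weak acute phase reactant in mice, stayed between 240 and 312 in all 6 mice, and its difference between Sham and Control mice was -0.09 ± 0.24 (SE) on the log2 scale.

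The orosomucoids are serum carriers of lipophilic molecules encoded by neighbouring genes on chromosome 4 (NCBIM37, mm9), Orm1 at chr4:63005594-63009197, Orm3 at chr4:63017196-63020545 and Orm2 at chr4:63023483-63026912. Orm2 had an FPKM of 178 and 180 in Control, 4769 and 7138 in Sham and 2248 and 538 in VSG mice. The 3 groups did not overlap, in the order Control, VSG, Sham, with the VSG mice apart by 4.18 times. The difference of Orm2 between Sham and Control mice was 5.02 ± 0.72 (SE) on the log2 scale, with an adjusted p of 0.159. This missed the threshold, and it passed when only the Sham and Control mice were fitted (adjusted p = 0.0847) or when VSG mouse 1 (0.0903) or VSG mouse 2 (0.0967) was left out. VSG mice were lower than Sham mice by -2.41 ± 0.72 (adjusted p = 0.944) and higher than Control mice by 2.61 ± 0.72 (adjusted p = 0.403). Orm1 was far more abundant in Control mice, at 1351 and 1318, and reached 6956 and 11195 in Sham and 5117 and 1720 in VSG mice. Its groups also kept apart in the same order, with differences of 2.72 ± 0.62 for Sham against Control (adjusted p = 0.288) and -1.57 ± 0.62 for VSG against Sham mice (adjusted p = 0.944). Orm3 was listed at 0 in 5 mice and at 305 in Sham mouse 2. Of the stretches of 50 bases, the read length, in the longest coding transcript, 20.4% in Orm1, 21.8% in Orm2 and 3.59% in Orm3 occurred in another coding gene, mostly within the family, so that the split of reads among the 3 genes is uncertain. For Apcs, Lcn2 and Hp this share was 0%.

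Lcn2, a lipocalin that withholds iron from bacteria by binding siderophores, had an FPKM of 154 and 109 in Control, 1932 and 5279 in Sham and 2069 and 214 in VSG mice. VSG mouse 1 lay within the Sham range and VSG mouse 2 was closer to the Control mice. Sham exceeded Control mice by 4.62 ± 1.16 on the log2 scale (adjusted p = 0.332). The Sham to VSG difference of -2.26 ± 1.16 (adjusted p = 0.944) was smaller than the distance between the 2 VSG mice.

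Among proteins of heme, iron and copper, Hp (haptoglobin, which binds free hemoglobin) was the most abundant member in every mouse. Its FPKM was 5340 and 5572 in Control, 14410 and 22141 in Sham and 11080 and 4459 in VSG mice. Sham mice were above all others, by 1.71 ± 0.57 over Control mice on the log2 scale (adjusted p = 0.411), and the VSG mice lay on either side of the Control mice. Cp (ceruloplasmin, a copper-carrying ferroxidase) had an FPKM of 50.8 and 237 in Control, 540 and 1190 in Sham and 577 and 306 in VSG mice. Both Control values were below the other 4, and the Control mice differed from each other by 4.68 times. The Cp difference between Sham and Control mice of 2.85 ± 0.86 (adjusted p = 0.388) was 1.75 without Control mouse 1 and 3.96 without Control mouse 2.

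Steap4, a metalloreductase that reduces iron and copper, followed another order, with an FPKM of 162 and 132 in Control, 140 and 266 in Sham and 58.0 and 61.3 in VSG mice. The VSG mice were close together and below the other 4. Among the 25 members, Steap4 had the smallest adjusted p in VSG against Sham mice, at 0.712, for a difference of -1.68 ± 0.36 on the log2 scale. Against Control mice the difference was -1.28 ± 0.36 (adjusted p = 0.404).

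The fibrinogen chain with FPKM values, Fgg, was among the most abundant members in Control mice. It was at 4215 and 4015 in Control, 3660 and 6986 in Sham and 2897 and 1719 in VSG mice, so that both VSG mice were below the other 4. The difference of VSG from Sham mice was -1.18 ± 0.48 on the log2 scale (adjusted p = 0.944), and Sham overlapped with Control mice.

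The protease inhibitors and matrix proteins split into those higher in Sham than Control mice and those that were not. Lrg1, a leucine-rich glycoprotein of serum, had an FPKM of 937 and 1262 in Control, 2793 and 2860 in Sham and 1964 and 686 in VSG mice. The Sham mice nearly coincided and lay above the other 4, by 1.38 ± 0.56 over Control mice on the log2 scale (adjusted p = 0.468). Itih4, a heavy chain of the inter-alpha-trypsin inhibitor family, was at 1013 and 1261 in Control, 1488 and 4626 in Sham and 1372 and 1369 in VSG mice. Its Sham mean rested on Sham mouse 2, since the difference from Control mice of 1.21 ± 0.59 (adjusted p = 0.522) was 0.40 without that mouse. Its relative Itih3 had an FPKM between 238 and 566 in all mice but Sham mouse 2, at 1061, and its groups overlapped in each comparison.

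Serpina3n, a secreted serine protease inhibitor, had an FPKM of 1423 and 1443 in Control, 929 and 2191 in Sham and 725 and 378 in VSG mice. Sham mice lay on either side of the Control mice, whereas both VSG mice were below the other 4, by -1.45 ± 0.55 against Sham (adjusted p = 0.944) and -1.45 ± 0.55 against Control mice (adjusted p = 0.513) on the log2 scale. The neighbouring Serpina3m was listed at 0 in both Control mice, Sham mouse 1 and VSG mouse 1, and at 964 in Sham mouse 2 and 440 in VSG mouse 2. Of its 50-base stretches, 19.1% occurred in other coding genes, chiefly of its own family, and 6.75% of those of Serpina3n. A2m, the alpha-2 macroglobulin, was at 26.2 in Sham mouse 2 and between 0.0214 and 0.258 in the other 5 mice.

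The mice of a group were not alike. Sham mouse 2 held the highest value of 18 of the 23 members above 0 in all mice, against 15.5% of the 8293 genes tested and above 0 in all mice. It exceeded Sham mouse 1 in 20 of the 23, where 45.2% of all genes did, with a median ratio of 1.91 times. VSG mouse 1 exceeded VSG mouse 2 in 18 of 23, against 47.9% of all genes. VSG mouse 2 held the lowest value of 9 members, and the share of all genes lowest in it was not computed. It held the highest value of 23.4% of all genes. The 2 mice differed by at least 2 times in 2 of the 23 members for Control mice, in 10 for Sham mice and in 9 for VSG mice, against 9.08%, 22.7% and 16.5% of all genes. The members with a row made up 3.54% and 3.91% of all FPKM in Control, 7.69% and 16.6% in Sham and 6.22% and 2.88% in VSG mice.

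**Figure D2:**
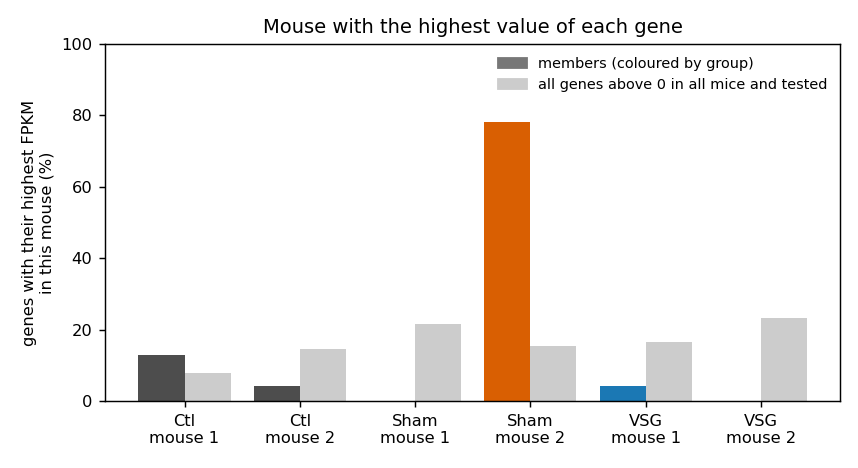
Share of genes (%) whose highest FPKM fell in each of the 6 mice, for the 23 members above 0 in all mice (bars coloured by group) and for the 8293 genes tested and above 0 in all mice (light grey). Sham mouse 2 held 18 of the 23 members, whereas all genes were spread from 8.07% to 23.4% over the mice.

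Of the ligands, RNA was scarce in these livers. Il6 was at most 0.103 FPKM in any mouse, Osm (oncostatin M) at most 0.0797, Tnf at most 0.298, and Il1b between 0.407 and 0.959. Of the 10 ligand genes, 2 passed the filter, and neither passed the test in any comparison. Ctf1 (cardiotrophin 1) had an FPKM of 2.17 and 1.76 in Control, 2.77 and 2.75 in Sham and 3.07 and 3.99 in VSG mice. Il1a was at 0.164 and 0.421 in Control, 1.38 and 0.690 in Sham and 1.69 and 1.71 in VSG mice. In both genes the groups did not overlap, in the order Control, Sham, VSG, and the share of all genes with this order was not computed. On the log2 scale VSG differed from Control mice by 0.61 ± 0.24 in Ctf1 (limma, adjusted p = 0.520) and by 1.07 ± 0.29 in Il1a (adjusted p = 0.399). Il1a passed the filter through Sham mouse 1 and the VSG mice alone, so that its order of groups cannot be separated from that selection.

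Il6ra and Il6st, which bind interleukin 6 and carry its signal, were listed at 0 in all 6 mice, as were 5 of 76 ribosomal protein genes. These zeros can be failed estimates, which was not tested. As described below, the promoter peak of Il6ra was in the upper part of every list, and Il6st had no promoter peak in any list. Lifr, which binds leukemia inhibitory factor and signals with Il6st, was listed at 0 in both Control mice and at 7.08 and 3.77 in Sham and 7.04 and 7.45 in VSG mice. Lifr was the only member to pass the test, with a difference of 3.04 ± 0.32 between VSG and Control mice on the log2(FPKM + 1) scale (limma, adjusted p = 0.0840). It no longer passed when any Control or VSG mouse was left out, with adjusted p from 0.247 to 0.543. Against Control, Sham mice differed by 2.64 ± 0.32 in Lifr (adjusted p = 0.115). Since Lifr passed the filter through Sham and VSG mice alone and its Control values are exact zeros, neither a fold nor a loss of its RNA in Control mice can be read from them.

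Osmr, the oncostatin M receptor, had an FPKM of 1.20 and 1.14 in Control, 0.991 and 3.69 in Sham and 0.605 and 0.471 in VSG mice, with VSG mice lowest and Sham mouse 2 apart. Il1r1, the receptor that carries interleukin 1 signals, was uneven and listed at 0 in Control mouse 1 and VSG mouse 1, beside 10.7 in Control mouse 2, 2.90 and 6.59 in Sham and 1.60 in VSG mouse 2. Its partner Il1rap varied between 27.5 and 61.1 FPKM with the lowest value in Sham mouse 2. Il1rn, the secreted antagonist of the interleukin 1 receptor, was at 2.71 and 2.62 in Control, 4.65 and 23.0 in Sham and 2.0 and 4.30 in VSG mice. Both Sham mice were highest in Il1rn, and the difference of 1.67 ± 0.74 from Control mice (adjusted p = 0.498) was 0.63 without Sham mouse 2.

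**Figure D3:**
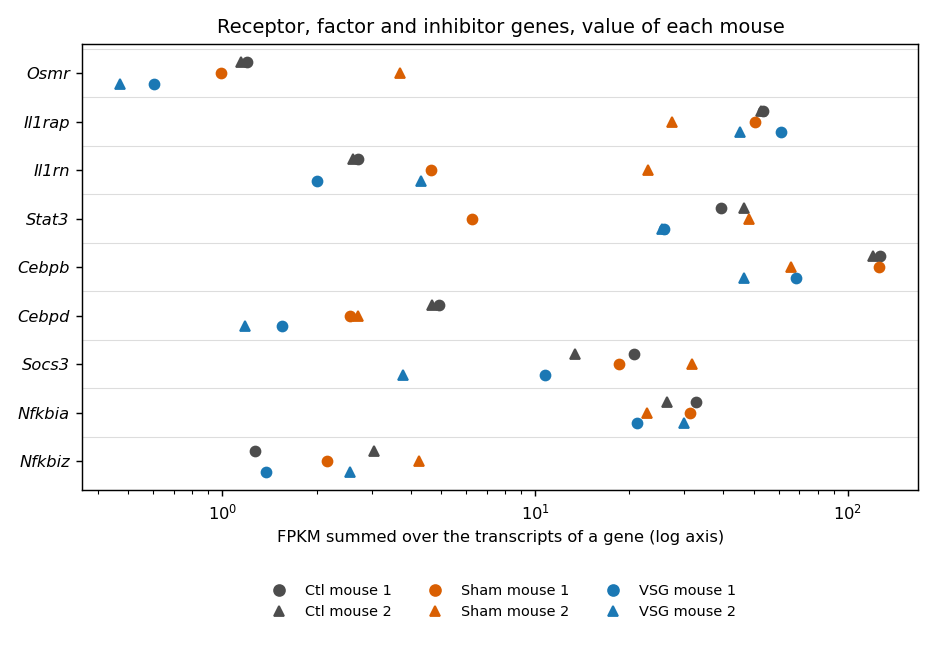
FPKM of each mouse (log axis) for the 9 receptor, factor and inhibitor genes above 0 in all 6 mice, in the colours and symbols used for the acute phase proteins (Ctl grey, Sham orange, VSG blue, circle mouse 1, triangle mouse 2). Cebpd falls into 3 groups that do not overlap, Stat3 has a low value in Sham mouse 1, and Socs3 is lowest in the VSG mice.

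None of the 3 transcription factors had a higher mean in Sham than in Control mice. Stat3, the main factor downstream of Il6st, had an FPKM of 39.3 and 46.4 in Control, 6.26 and 48.2 in Sham and 25.7 and 25.5 in VSG mice. The 2 Sham mice held its lowest and highest values, and the difference of -1.21 ± 0.90 from Control mice (adjusted p = 0.647) was 0.17 without Sham mouse 1 and -2.59 without Sham mouse 2, so that each value rested on 1 Sham mouse. Cebpb (C/EBP beta) was at 127 and 121 in Control, 126 and 65.6 in Sham and 68.3 and 46.4 in VSG mice. VSG mice were below both Control mice in Cebpb, by -1.12 ± 0.39 on the log2 scale (adjusted p = 0.490). Cebpd (C/EBP delta) had an FPKM of 4.91 and 4.67 in Control, 2.56 and 2.71 in Sham and 1.55 and 1.18 in VSG mice. Its groups were tight and ordered Control, Sham, VSG, with differences of -0.67 ± 0.22 for Sham against Control (adjusted p = 0.406), -0.63 ± 0.22 for VSG against Sham (adjusted p = 0.944) and -1.30 ± 0.22 for VSG against Control mice (adjusted p = 0.270).

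The feedback inhibitor Socs3, which blocks signalling at Il6st, had an FPKM of 20.6 and 13.4 in Control, 18.6 and 31.8 in Sham and 10.8 and 3.79 in VSG mice. Both VSG mice were below the other 4, by -1.75 ± 0.54 against Sham mice on the log2 scale (adjusted p = 0.944). Nfkbia, which holds NF-kappa B in the cytoplasm, stayed between 21.2 and 32.6 in all mice, and Nfkbiz, a nuclear regulator of NF-kappa B, between 1.27 and 4.26, and the groups overlapped for both.

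In VSG against Control mice, members lay on both sides. Both VSG mice were above both Control mice by at least 1 on the log2 scale for 6 of 25 members, against 5.65% of all genes. These were Apcs, Orm1, Orm2, Lcn2, Cp and Lifr, with Lifr listed at 0 in both Control mice. Both VSG mice were below for Steap4, Serpina3n, Cebpb, Cebpd and Socs3, 5 of 25 against 3.33% of all genes. Without VSG mouse 2 this held for 2 (Steap4 and Cebpd), then near the 7.27% of all genes. The median difference of the members was -0.01 on the log2 scale, beside 0.13 over all genes.

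**Figure D4:**
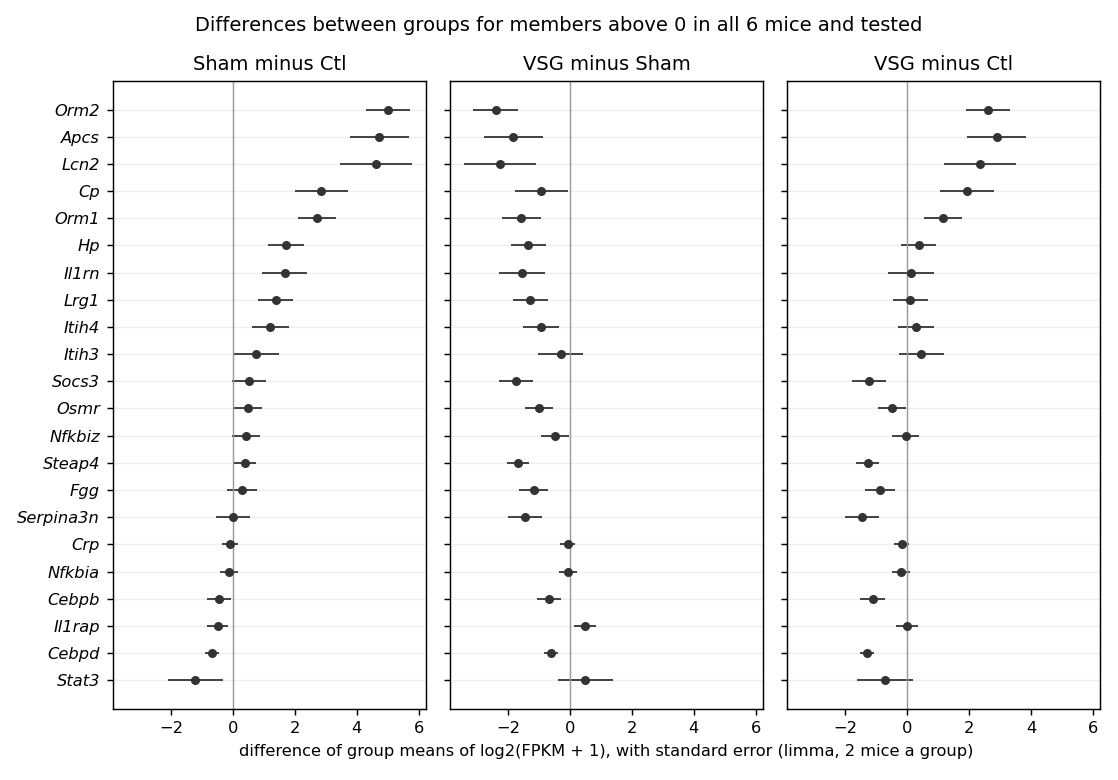
Difference between group means of log2(FPKM + 1), with bars of 1 standard error (limma, 2 mice a group), for the 22 members tested and above 0 in all 6 mice, in the order of the Sham minus Ctl difference. Orm2, Apcs and Lcn2 lead in Sham minus Ctl with differences from 4.62 to 5.02, most points lie left of 0 in VSG minus Sham, and in VSG minus Ctl points lie on both sides.

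Lists of further genes showed no call. Of 22 other positive acute phase genes 17 were tested, of 12 negative ones 10, and of 26 other signalling genes 22, and 0 passed the test in any comparison. In VSG against Sham mice, 15 of the 17 other positive acute phase genes had a lower mean, with 4 lower (Hamp, Mt1, Mt2 and Serping1) and 1 higher (Mbl2) at an unadjusted p under 0.05, genes named after their values were seen, beside 40.3%, 1.60% and 3.25% of all genes. In the same comparison 8 of the 10 negative ones had a higher and 2 a lower mean, where 40.3% of all genes had a lower mean. Of the 10, 0 reached that unadjusted p in the higher direction, against 3.25% of all genes.

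Of 8 hepatocyte markers 6 had a row, summing to between 10753 FPKM in Sham mouse 2 and 21020 in Control mouse 1, with Apob listed at 0 in Sham mouse 1. Sham mouse 2, with the highest acute phase values, thus had the lowest hepatocyte sum. Apoa1 and Ttr, at 7161 and 1011 FPKM in that mouse, are also in the list of negative acute phase genes. The sum therefore shares genes with that list, and what lowered it was not tested. Apoa1 was lower still in VSG mouse 2, at 6334. Cyp2e1, a marker outside that list, was at 2047 in Sham mouse 2 and 4036 to 6479 in the others. FPKM is a share of the library, and the members made up 16.6% of all FPKM in Sham mouse 2. In bulk tissue, fewer cells of a type and less RNA per cell cannot be told apart. The 10 neutrophil markers summed to 15.1 and 6.58 in Control, 44.4 and 48.3 in Sham and 24.2 and 18.1 in VSG mice, with Ly6g listed at 0 in all. The 7 monocyte and macrophage markers summed to 7.35 and 7.49 in Control, 27.8 and 70.9 in Sham and 23.8 and 53.0 in VSG mice, and the 7 Kupffer cell markers to 17.5 and 11.9, 38.8 and 35.5, and 37.2 and 148. The 4 sinusoidal endothelial markers summed to 30.3 and 9.56 in Control, 6.18 and 3.10 in Sham and 20.3 and 19.5 in VSG mice, and the 5 stellate cell markers to 44.8 and 45.6, 15.7 and 28.9, and 45.8 and 60.4, both lowest in the 2 Sham mice. The most abundant marker weighs most in such a sum. In Sham mice Dcn gave 13.9 and 23.8 of the stellate sum and Lyz2 22.2 and 60.0 of the macrophage sum. Clec4g gave 26.1 and 4.35 of the endothelial sum in Control, 3.93 and 2.19 in Sham and 18.5 and 17.4 in VSG mice. In that list Lyve1 was higher in Sham mouse 1 (1.39) than in the VSG mice (0.913 and 0.893). Stab2 was listed at 0 in Control mouse 1 and VSG mouse 2, and Kdr in Control mouse 1. Markers of a list also differed, since Lrat, Dcn and Reln were lower in both Sham than both Control mice. Col1a1, of the same stellate list, was higher, and Des overlapped. The sums moved with several members between Sham and Control mice, and their part in the results was not tested. The other sums ranged over the 4 cholangiocyte markers (1.63 to 4.57), 4 adipocyte markers (0.251 to 20.5, Lep at 0) and 6 lymphocyte markers (0.480 to 3.03).

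FAIRE peaks were deposited as 1 list per group that joins its 2 mice, so that no value per mouse and no test is given. All 36 members could be placed on NCBIM37. A peak lay within 1 kb of a start site for 29 members in the Control list, 32 in the Sham list and 29 in the VSG list. These are 80.6%, 88.9% and 80.6% of the members, some of which were not tested for RNA. Of all 22381 annotated genes 51.4%, 51.4% and 52.6% had such a peak, and of the genes tested for RNA 90.3%, 89.9% and 91.1%. With the same number of peaks taken from each list the count was 29 in all 3. For 26 members all 3 lists held a promoter peak. In the 10 others, Saa1, Saa2 and Serpina3n had one in the Control and Sham lists but not in the VSG list. This pattern held for 0.42% of all annotated genes and 0.449% of the genes tested for RNA. Apcs had a promoter peak in the Sham list alone, at the 7.50th percentile of the signal in that list, among its weakest peaks. Crp and Fgb had one in the Sham and VSG lists, Il1rn in the VSG list, and A2m, Cp and Il6st in none.

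The lists hold 42204 peaks for Control, 52881 for Sham and 44539 for VSG, so that a percentile also depends on how many weak peaks its list holds, and percentiles are set side by side as a description. The percentile was highest in the Sham list for 12 of the 26 members, in the Control list for 7 and in the VSG list for 7, where among all genes 27.4% were highest in Sham, 25.8% in Control and 46.8% in VSG. The promoter peak of Orm1 stood at percentile 53.8 in Control, 72.5 in Sham and 45.0 in VSG, and that of Orm2 at 75.7, 84.6 and 69.2. Itih4 was likewise highest in the Sham and lowest in the VSG list, at 88.5, 94.0 and 77.5. Hp and Steap4, whose FPKM was below Sham in both VSG mice, had their highest percentile in the VSG list, Hp at 49.6 in Control, 70.8 in Sham and 79.1 in VSG and Steap4 at 78.4, 75.0 and 82.3. Lrg1 was lowest in the VSG list at 71.1, beside 92.7 in Control and 89.6 in Sham, and so was Osmr at 23.8, beside 75.2 and 59.7. The start site of Stat3 was among the most open in every list, at 99.8, 99.8 and 99.6. That of Il6ra stood at 91.8, 88.4 and 91.2, although its RNA was listed at 0.

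**Figure D5:**
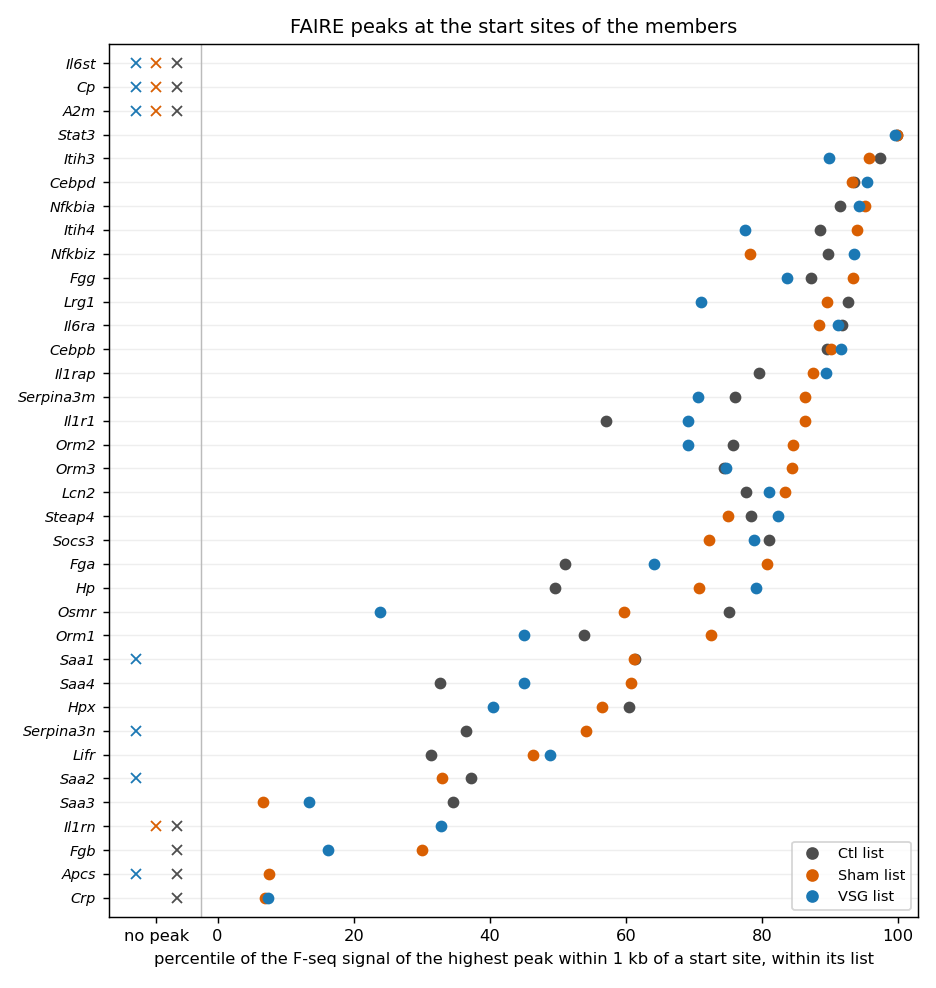
Percentile, within the peak list of each group (Ctl grey, Sham orange, VSG blue), of the F-seq signal of the highest FAIRE peak within 1 kb of a start site of each of the 36 members, and crosses at the left where a list holds no such peak. Stat3 lies near 100 in all lists, Osmr and Lrg1 are lowest in VSG, and Saa1, Saa2 and Serpina3n lack a peak in the VSG list alone.

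Of the 99 sites that the authors list as more accessible in Sham than VSG mice, 6 lay within 100 kb of a start site of a member, and 4 within 10 kb. All 4 were at Saa1 and Saa2, neighbouring genes on opposite strands that encode the major acute phase serum amyloid A proteins carried on high-density lipoprotein. Saa1 lies at chr7:53995871-53998350 on the minus strand and Saa2 at chr7:54007203-54009684 on the plus strand (NCBIM37). The sites covered the start of Saa1 (chr7:53998281-53998673), the start of Saa2 (chr7:54006848-54007250), the 3′ end of Saa1 (chr7:53995503-53995920) and the 3′ end of Saa2 (chr7:54009007-54010510). Each overlapped a peak of the Control and of the Sham list and none of the VSG list. The peaks over the 2 start sites ranked at percentiles 61.3 (Saa1) and 37.3 (Saa2) in the Control list and 61.2 and 33.0 in the Sham list. None of the 4 was among the authors' sites that differ between Sham and Control mice and return in VSG mice. Within 10 kb, 3 members (Saa1, Saa2 and Saa4) had a site of this list, against 0.170% of all genes, and within 100 kb 6 members, against 1.29%, the genes of the Saa cluster sharing their sites.

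The other 2 sites within 100 kb were at chr1:40231867-40232314, 49611 bp from the start of Il1r1, and at chr1:174860060-174860314, 34875 bp from the start of Apcs. The latter overlapped a peak of the Sham list alone and is also in the authors' list of reversible sites higher in Sham mice, which put a site within 100 kb of 0.764% of all genes. Of the 414 sites listed with higher accessibility after VSG, 1 lay within 100 kb of a member, over the start of Hps5 and 43568 bp from that of Saa2. It put 4 members, the Saa genes, within reach, against 6.69% of all genes.

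The 250 bases before the start site are shown for the pair of promoters that these sites covered in full, and then for Orm2 and Apcs, with the widest differences between Sham and Control mice among the members tested and above 0 in all mice. They were taken from the RefSeq promoter table (GRCm38.p6) and each matched NCBIM37 exactly in 1 place on its chromosome, at chr7:53998351-53998600 (minus strand), chr7:54006953-54007202 (plus), chr1:174825186-174825435 (minus) and chr4:63023233-63023482 (plus). Capitals mark matches to the C/EBP motif TTNNGCAA in Saa1, Saa2 and Orm2 and to the STAT motif TTCNNNGAA in Apcs, on either strand.
Saa1: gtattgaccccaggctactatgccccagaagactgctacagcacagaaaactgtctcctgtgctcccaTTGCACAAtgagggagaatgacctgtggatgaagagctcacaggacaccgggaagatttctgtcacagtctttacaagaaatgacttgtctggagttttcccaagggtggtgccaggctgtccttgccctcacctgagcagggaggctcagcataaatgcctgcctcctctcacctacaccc
Saa2: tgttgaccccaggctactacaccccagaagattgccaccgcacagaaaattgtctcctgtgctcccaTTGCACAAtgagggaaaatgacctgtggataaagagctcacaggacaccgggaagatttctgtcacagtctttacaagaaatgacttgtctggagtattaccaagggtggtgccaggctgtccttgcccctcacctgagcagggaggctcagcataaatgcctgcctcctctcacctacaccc
Apcs: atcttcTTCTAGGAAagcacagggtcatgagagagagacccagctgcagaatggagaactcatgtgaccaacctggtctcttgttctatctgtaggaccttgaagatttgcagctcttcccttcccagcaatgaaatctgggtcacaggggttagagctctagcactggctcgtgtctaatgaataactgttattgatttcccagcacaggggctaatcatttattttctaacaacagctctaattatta
Orm2: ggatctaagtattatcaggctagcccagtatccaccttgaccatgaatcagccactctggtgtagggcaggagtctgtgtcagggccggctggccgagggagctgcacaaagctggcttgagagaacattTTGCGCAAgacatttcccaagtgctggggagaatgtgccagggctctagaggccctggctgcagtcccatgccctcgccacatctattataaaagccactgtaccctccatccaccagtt

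The Saa1 and Saa2 promoters were identical in 238 of 251 aligned columns (94.8%), and the C/EBP match began 182 bases before the start in Saa1 and 183 in Saa2. In Orm2 it began 120 bases before the start, and the STAT match of Apcs 244 bases before. Of the 36 members, 30 had an entry in the promoter table, which runs from 250 bases before to 50 after the start. The C/EBP motif was found in 13 of the 30, or 43.3%, against 12.2% of all genes in the table. The 13 were Saa1, Saa2, Saa3, Saa4, Orm2, Orm3, Lcn2, Hpx, Cp, Steap4, Fga, Fgb and Il1r1, of which Saa1 and Saa2 are near-identical in this stretch. The STAT motif was in 6 of 30, against 9.55% of genes, in Apcs, Steap4, Fga, Fgb, Itih4 and Socs3. The 10-base kappa B motif was in 3 of 30, against 9.55% of genes, in Steap4, Il1r1 and Nfkbia. In a window of 1000 bases before to 100 after the start, 21 of 36 members held the C/EBP motif against 36.9% of genes, 10 the STAT motif against 29.6% and 9 the kappa B motif against 22.2%. A match is a description of letters and not evidence of binding.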

How the data were processed

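RNA-seq and FAIRE-seq of 12 samples (2 mice in each of 3 groups per assay) were analysed from tables that the authors deposited. The FPKM values were computed by the authors with Cufflinks per RefSeq transcript after TopHat2 alignment of 50-bp reads to mm9. The labels describe poly(A) enrichment and the study's methods depletion of ribosomal RNA. FAIRE reads were aligned by the authors with Bowtie, and the deposited F-seq signal belongs to peaks that IDR found reproducible between the mice of each group. Deposited variable sites are positions only. Tables of the authors' own DESeq2 fold changes and p-values were not used.

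Of 34933 transcripts, 34046 matched a RefSeq gene name. FPKM was summed per gene and taken as log2(FPKM + 1). Genes that reached 1 FPKM in 2 or more mice were modelled in limma 3.58.1 (R 4.3.3, variance trend, 3 groups). The p-values had Benjamini-Hochberg adjustment over all genes, with calls at 10% FDR. The study used that level with DESeq2, another test, so that its numbers of calls and those here are not comparable. Fold changes on the log2(FPKM + 1) scale understate those of low genes. The fit was tested on simulated data. Read totals are not in the files. The most frequent ratio of low FPKM values to those of Control mouse 1, inverted, gave relative depths of 0.674 to 1.56. Replicate numbers did not pair mice. Peaks were ranked within their list only, and genes placed with the NCBIM37 annotation, in Python 3.11.15. In place of a protein comparison, which was planned, stretches of 50 bases shared between coding transcripts were counted, because no protein table was used here.

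Values in every mouse are given for members whose group means differ by at least 1 on the log2 scale in any comparison, for those called and for Il6ra, Il6st, Stat3, Socs3, Cebpb and Cebpd, and otherwise ranges. The members and gene lists were chosen with earlier results of these data known. Alternatives covered pseudocounts, filters, scaling, the variance trend, the groups fitted, the transcript used, a replicate block and each mouse left out. Leaving out mice from the counts of groups that do not overlap was chosen after seeing the data.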

Additional observations from a re-analysis of the deposited data

How the results depend on the processing

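No member changed direction under the alternatives other than leaving out a mouse, except for 2 of 24 in VSG against Control mice with the most abundant transcript of each gene. Leaving out a mouse changed the direction of 0 to 6 members a comparison, among those with a difference of at least 1 on the log2 scale only Stat3 without Sham mouse 1 and Il1r1 without Control mouse 2.

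In Sham against Control mice, where 0 members were called, 1 was called with pseudocount 0.1, with pseudocount 0.5 and with upper quartile scaling (Lifr in each), 1 when only the 2 groups were fitted (Orm2), and 0 to 2 with a mouse left out (Lifr and Stat3 without Sham mouse 2, where Sham is 1 mouse assumed to vary like the other groups, and Orm2 without either VSG mouse). Of all genes 28 were called, 64 with no filter, 9 with the replicate block and 0 to 168 with a mouse left out. Members lower by at least 1 (log2) without overlap were 0, and 0 to 1 with a mouse left out, against 6.39% to 9.99% of all genes.

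In VSG against Sham mice 0 members were called throughout. Of all genes 5 were called, 8 with pseudocount 0.1 or 0.5, 9 with only the 2 groups fitted, 0 with the replicate block and 0 to 76 with a mouse left out. The median of the members was between -1.65 and -0.65 with a mouse left out. Members without overlap were 5 to 17 lower and 0 to 1 higher with a mouse left out, against 4.26% to 5.31% and 5.17% to 8.96% of all genes.

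In VSG against Control mice the 1 member called, Lifr, was lost with no filter (0), with a filter on the mean FPKM (0), with the replicate block (0, adjusted p = 0.234) and without any Control or VSG mouse (0), and kept without either Sham mouse (1). Of all genes 28 were called, 44 with only the 2 groups fitted, 10 with the replicate block and 0 to 34 with a mouse left out. Members lower without overlap were 2 to 6 with a mouse left out, against 4.57% to 7.27% of all genes. The cause was not tested. The replicate numbers of the labels do not pair the mice (correlations of deviations 0.118, 0.0643 and 0.0390).

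Within 10 kb instead of 100 kb, 0 sites higher in VSG and 0 reversible sites lay near a member. The longer promoter window, by construction, held more motifs, with 10 members for STAT, 21 for C/EBP and 9 for kappa B.

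With 2 mice a group and read totals not in the files, differences within the spread between mice were not detectable. The p-values rest on the spread within groups, pooled over the groups fitted and moderated towards that of other genes. The split of reads among copies of the Orm and Serpina3 families, and whether exact zeros are failed estimates, were not tested.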

Other observations

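Among the other positive acute phase genes, Hamp, Mt1 and Mt2 followed another order than Orm1, Orm2 and Hp, and are named after their values were seen. Hamp, which encodes the iron hormone hepcidin, had an FPKM of 2052 and 2407 in Control, 1253 and 718 in Sham and 99.7 and 4.74 in VSG mice. The groups did not overlap, in the order Control, Sham, VSG, and the difference of VSG from Sham mice was -5.30 ± 1.35 (SE) on the log2(FPKM + 1) scale (limma, adjusted p = 0.842). Mt1, a metallothionein that binds zinc and copper, was at 4506 and 5629 in Control, 2826 and 3221 in Sham and 870 and 555 in VSG mice. Its VSG values were below all others, by -2.12 ± 0.36 against Sham mice (adjusted p = 0.481). Mt2, its neighbouring copy, was at 2675 and 4196 in Control, 1861 and 3699 in Sham and 378 and 307 in VSG mice, with a difference of -2.94 ± 0.46 between VSG and Sham mice (adjusted p = 0.458). No value of the 3 genes passed the threshold.

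Tat, tyrosine aminotransferase and one of the hepatocyte markers, passed the test. Its FPKM was 1376 and 1477 in Control, 210 and 188 in Sham and 233 and 283 in VSG mice, and it fell by 2.84 ± 0.24 on the log2 scale in Sham against Control mice (limma, adjusted p = 0.0445). Its 4 values on the high-fat diet lay close together, unlike those of Orm2, Lcn2 and Apcs in the same mice.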
